A study of Mus musculus with 8 samples.

Results

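The EGR, IER, SRF and MYC genes analysed here are 8 early response genes, Egr1, Egr2, Egr3, Ier2, Ier3, Ier5, Srf and Myc, taken by symbol from the 55801 genes listed for mouse peritoneal macrophages. Each symbol matched 1 gene. The cells were collected from the abdominal cavity of mice injected with thioglycollate broth (the study used male C57BL/6 animals of 6 to 8 weeks), total RNA of 8 samples in 4 groups of 2 was isolated, and its mRNA was sequenced. The groups were vehicle (NC, treated with DMSO), LPS, C498, and C498 together with LPS (C498+LPS). C498, a small molecule of the study, was given at 15 µM for 0.5 h, and LPS, the outer membrane glycolipid of Gram-negative bacteria that TLR4 senses, was added next at 100 ng/ml and kept for 4 h. How long the NC cells and the cells given C498 alone were cultured after the 0.5 h is not given in the sources used here. If they were collected earlier than the cells given LPS, time in culture and LPS cannot be told apart in any comparison of a group given LPS with one that was not, nor in the interaction. Nothing says that the 2 samples of a group came from separate mice or cultures, so p-values measure only the spread between these samples, which may be technical.

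Early response genes are switched on within minutes of a stimulus, without new protein synthesis, and most of their mRNAs and proteins are short-lived. Growth factor, stress and TLR4 signals reach many of them through the ERK and p38 kinases and through SRF, which binds a DNA element called the CArG box with ETS-family partners, while others answer to NFκB. EGR1, EGR2 and EGR3 are zinc finger transcription factors, IER2, IER3 and IER5 are small early response proteins, and MYC is a bHLH transcription factor of growth and ribosome synthesis. In macrophages EGR2 also belongs to the alternatively activated state and lasts beyond the first response.

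RefSeq promoter windows on GRCm38.p6 were at hand for 4 of the 8 genes, Egr2, Ier3, Ier5 and Srf. The stretches from 130 to 31 bases before the start site are shown for these 4 genes so that the elements found in them can be read beside the levels. The windows are chr10:67537739-67537838 (plus strand, before the start of transcript Egr2-201, taken as 1 of 5 Egr2 windows), chr17:46556193-46556292 (minus strand, Srf), chr17:35821583-35821682 (plus strand, Ier3) and chr1:155099667-155099766 (minus strand, Ier5). All are written 5′ to 3′, with CArG boxes in capitals in Egr2 and Srf and a κB site, the element bound by NFκB, in capitals in Ier3.
Egr2: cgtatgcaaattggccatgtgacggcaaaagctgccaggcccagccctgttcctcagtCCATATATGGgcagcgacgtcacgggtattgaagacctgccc
Srf: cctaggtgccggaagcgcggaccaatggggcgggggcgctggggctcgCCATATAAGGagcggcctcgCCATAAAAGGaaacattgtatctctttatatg
Ier3: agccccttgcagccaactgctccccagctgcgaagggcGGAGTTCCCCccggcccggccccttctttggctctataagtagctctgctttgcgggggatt
Ier5: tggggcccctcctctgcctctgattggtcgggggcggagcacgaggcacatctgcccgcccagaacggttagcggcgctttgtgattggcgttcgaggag

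In the 250 bases before each start, searched on both strands, Srf held 2 CArG boxes, and 4 of the 5 windows of Egr2 held 1. The Egr2 windows are not independent, since 3 of them overlap and hold the same box, so that these 4 windows hold 2 distinct boxes. The κB site matched once in Ier3, and neither element matched in Ier5. Of 32851 RefSeq windows of this length, 1.47% held a CArG box and 3.90% a κB site. The shorter letters TGACG, part of the CRE element bound by CREB, were present in the 3 overlapping Egr2 windows, as the same 2 matches, and in Srf, and in 17.8% of all windows. CACGTG, the E-box bound by MYC, matched in 1 Egr2 window (6.02% of all windows), while GCGNGGGCG, an EGR site, matched in Srf (4.70%). The ETS core CCGGAA matched in Srf and in 1 Egr2 window (12.0%), and TGANTCA, the AP-1 site, in none of these 8 windows (6.75%). A match of letters is no evidence of binding. In GENCODE M21 on GRCm38 the genes other than Egr1 lie at chr10:67535475-67542188 (plus strand, Egr2), chr14:70077203-70082614 (plus strand, Egr3), chr8:84661331-84662852 (minus strand, Ier2), chr17:35821684-35822923 (plus strand, Ier3), chr1:155096361-155099636 (minus strand, Ier5), chr17:46548329-46556175 (minus strand, Srf) and chr15:61985391-61990374 (plus strand, Myc).

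Expression is given in TPM, a unit per gene length with the same total in each sample. TPM do not show how many reads a gene had, and the sequencing depth is therefore unknown. The limma fit on log2(TPM + 1) took in the 12189 genes that reached a mean TPM of 1, and 7 of the 8 early response genes were among them. Egr3, with a mean TPM of 0.634, was not. A gene was called when its fold change was at least 2 and its Benjamini-Hochberg adjusted p at most 0.05, and because 1 is added, changes of weakly expressed genes come out smaller. All 6 macrophage markers (Adgre1, Cd68, Itgam, Csf1r, Lyz2 and Mertk) exceeded a mean TPM of 1, with sums from 10583 to 20248 TPM. The sums of 6 markers each of neutrophils (114 to 221 TPM), eosinophils and mast cells (5.98 to 14.4 TPM) and lymphocytes (3.73 to 10.6 TPM) were lower, and Ngp and Epx were listed at 0 in every sample. Mesothelial and fibroblast markers summed to 111 to 157 TPM in the samples without C498 and to 454 to 671 TPM in those with it. Pearson's r between the 2 samples of a group was 0.962 to 0.981 across tested genes, which are not independent replicates. In such bulk samples, fewer cells of a type and less RNA per cell cannot be told apart.

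C498 alone upregulated Egr1, Egr2, Ier3, Ier5 and Myc, and after LPS the levels of Egr1, Egr2, Ier3 and Myc were higher with C498 than without it. LPS alone upregulated Ier3 and downregulated Egr2. Ier2 and Srf were called in no comparison. In C498 vs NC, 5 of the 7 tested genes were called up and 0 down, where 5.64% of all tested genes were called up and 1.36% down. In C498+LPS vs LPS, 4 of 7 were called up and 0 down, against 5.39% and 2.18% of all tested genes. At an unadjusted p under 0.05, all 7 were higher in C498 vs NC, and 6 were higher in C498+LPS vs LPS, where 0 were lower. Over all tested genes, 17.4% were higher and 14.6% lower in C498 vs NC by this measure, and 16.0% and 15.1% in C498+LPS vs LPS. The median log2 change over the 7 genes was 1.47 in C498 vs NC and 1.51 in C498+LPS vs LPS, against 0.01 in both comparisons over all genes.

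In LPS vs NC, 1 of the 7 genes was called up and 1 down, where 5.55% of all tested genes were called up and 6.68% down. In C498+LPS vs C498, 0 were called up and 1 down (2.52% and 3.13% of all genes), and in C498+LPS vs NC, 4 (Egr1, Ier3, Ier5 and Myc) were called up and 0 down (9.15% and 9.06%). At an unadjusted p under 0.05, 1 gene was higher and 2 were lower in C498+LPS vs C498, and 5 were higher and 0 lower in C498+LPS vs NC, where over all tested genes 7.65% were higher and 24.2% lower, and 19.0% and 31.6%. These shares depended on the scaling, since with each sample centred on its median gene they were 15.7% higher and 12.6% lower in C498+LPS vs C498 and 24.3% and 26.4% in C498+LPS vs NC. The median log2 change over all tested genes was -0.17 in LPS vs NC, -0.18 in C498+LPS vs C498 and -0.15 in C498+LPS vs NC. Centring each sample on its median gene left the calls of the 7 genes in these 3 comparisons in place, with 1 gain, Egr1 in LPS vs NC. The interaction, which asks whether the LPS change differed with C498, called 1 of the 7 genes down, Ier3, and 0 up, against 0.394% and 0.0738% of all genes (4 of the 7 lower and 0 higher at an unadjusted p under 0.05, against 6.21% and 4.87% of all genes). The comparisons that share a group of samples are not independent of each other.

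**Figure D1:**
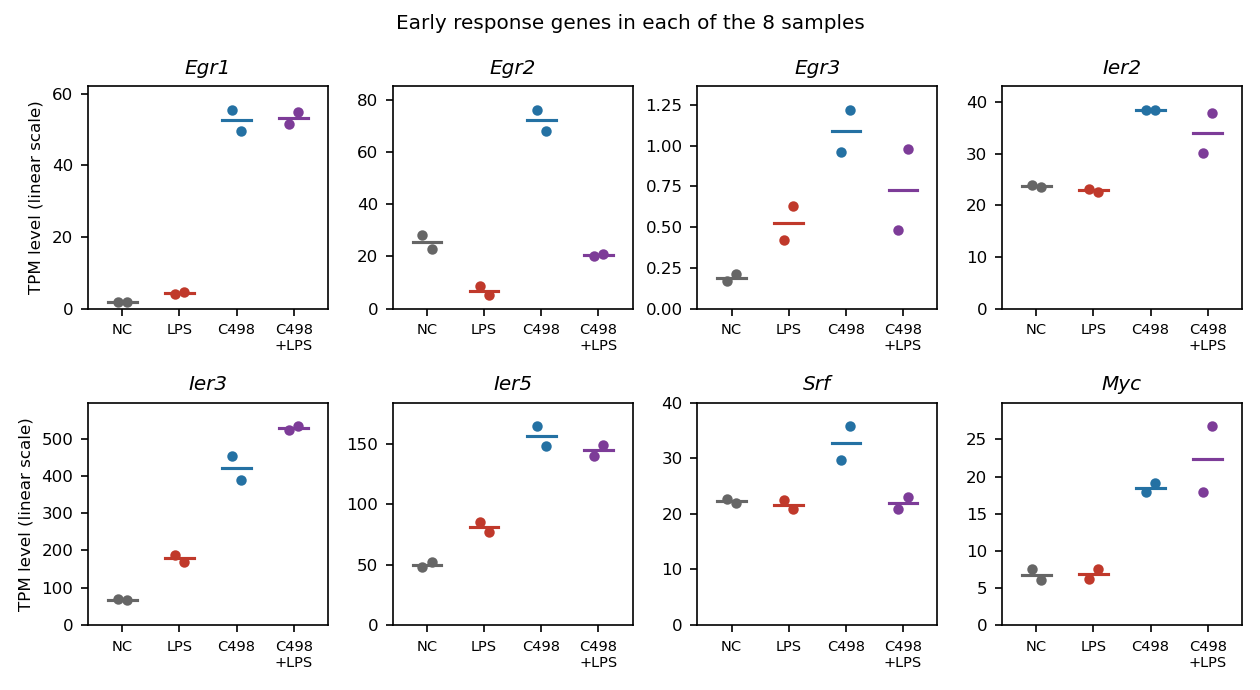
TPM level (linear axis) of each gene in the 8 samples, with a point per sample and a line at the mean of each group of 2. Egr1 and Ier3 sit higher in both groups with C498 than in NC and LPS, while Egr2 is highest in C498 alone and lowest in LPS.

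Egr1, a factor that activates or represses many growth and inflammatory genes, had the widest ratio between its highest and lowest sample, 30.5. Its TPM was 1.86 and 1.82 in NC, 4.18 and 4.68 in LPS, 55.5 and 49.7 in C498, and 51.6 and 54.8 in C498+LPS. Both groups with C498 lay far above both groups without it and overlapped each other. The mean was 28.6 times that of NC in C498 (52.6 ± 4.14 vs 1.84 ± 0.0283, SD, n = 2) and 12.0 times that of LPS in C498+LPS (53.2 ± 2.28 vs 4.43 ± 0.354). On the log2(TPM + 1) scale the changes were 4.24 (95% interval 3.92 to 4.55, adjusted p = 1.29e-05) and 3.32 (3.004 to 3.64, adjusted p = 7.01e-05). The LPS change without C498 was 0.93 (0.62 to 1.25, adjusted p = 0.00261), short of the fold threshold, although the ratio of the mean TPM was 2.41. With C498 the LPS change was 0.02 (-0.30 to 0.33, adjusted p = 0.948), and the test of the difference between the LPS changes gave -0.92 (-1.36 to -0.47) with an adjusted p of 0.12.

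Egr2 moved in opposite directions with the 2 agents. Its TPM was 28.3 and 22.7 in NC, 8.49 and 5.12 in LPS, 76.1 and 68.1 in C498, and 20.3 and 21.0 in C498+LPS. No group overlapped another, and C498+LPS came closest to NC. LPS lowered it both without C498, to 0.267 of the NC mean (log2 change -1.79, 95% interval -2.30 to -1.28, adjusted p = 0.00133), and with C498, to 0.286 of the C498 mean (-1.75, -2.26 to -1.24, adjusted p = 0.00303). C498 raised it to 2.83 times the NC mean (1.47, 0.96 to 1.98, adjusted p = 0.00648) and to 3.03 times the LPS mean (1.51, 0.99 to 2.02, adjusted p = 0.00478). The interaction was 0.04 (-0.69 to 0.76, adjusted p = 0.977), and C498+LPS vs NC gave -0.28 (-0.80 to 0.23, adjusted p = 0.326). The rise with C498 lost its call without either C498 sample (adjusted p = 0.0727 without replicate 1 and 0.0566 without replicate 2), and that in C498+LPS vs LPS without C498+LPS replicate 2 (adjusted p = 0.0524).

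Egr3, the relative of Egr1 and Egr2 that was too low for the test, had a TPM of 0.17 and 0.21 in NC, 0.42 and 0.63 in LPS, 0.96 and 1.22 in C498, and 0.48 and 0.98 in C498+LPS. The NC samples were the lowest, and the C498+LPS samples overlapped both LPS and C498. When the filter was dropped, C498 vs NC gave a log2 change of 0.81 with an adjusted p of 0.0618, and Egr3 was called in none of the 4 comparisons between treatments shown for the other genes. Of the EGR corepressors, Nab1 had group means between 27.3 and 34.3 TPM and Nab2 between 14.5 and 20.2 TPM, and neither was called in any comparison, with 1 of them lower at an unadjusted p under 0.05 in C498+LPS vs C498 and 0 in the others.

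The 3 IER genes were detected in every sample, and Ier3 was the most abundant of the 8 genes in each group. Ier3 encodes a protein that limits apoptosis and ERK dephosphorylation. Its TPM was 70.4 and 65.9 in NC, 189 and 168 in LPS, 454 and 390 in C498, and 523 and 533 in C498+LPS. The 4 groups followed each other in this order with no overlap. LPS alone raised Ier3 by 1.37 on the log2 scale (95% interval 1.13 to 1.62, adjusted p = 1.65e-04), and C498 alone by 2.61 (2.36 to 2.86, adjusted p = 3.67e-05). C498 raised it by 1.56 over LPS (1.31 to 1.81, adjusted p = 4.61e-04), whereas LPS on top of C498 gave 0.33 (0.08 to 0.58, adjusted p = 0.0775). The difference between the LPS changes was -1.05 (-1.40 to -0.70, adjusted p = 0.043), which was called, but the call was lost when any 1 of the 8 samples was left out.

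Ier5, a target of heat shock factor that acts with it and with the phosphatase PP2A, had a TPM of 48.2 and 52.1 in NC, 85.4 and 77.4 in LPS, 165 and 149 in C498, and 140 and 150 in C498+LPS. The groups were separate except that the C498 groups with and without LPS overlapped. Ier5 rose with C498 alone by 1.62 on the log2 scale (95% interval 1.38 to 1.87, adjusted p = 2.27e-04), to 3.13 times the NC mean. Over LPS the C498 difference was 0.83 (0.58 to 1.07, adjusted p = 0.00283) and in LPS vs NC 0.69 (0.45 to 0.93, adjusted p = 0.00304), both under the fold threshold. The interaction gave -0.80 (-1.14 to -0.46, adjusted p = 0.088).

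Ier2, a nuclear protein of the early response, had a TPM of 23.9 and 23.6 in NC, 23.2 and 22.6 in LPS, 38.5 and 38.4 in C498, and 30.2 and 37.8 in C498+LPS. The samples with C498 were all above those without it, and of these C498+LPS replicate 1 was the lowest. The mean was 1.62 times NC in C498 (log2 difference 0.67, 95% interval 0.37 to 0.98, adjusted p = 0.0166) and 1.49 times LPS in C498+LPS (0.54, 0.24 to 0.85, adjusted p = 0.0299). Neither reached the fold threshold. LPS vs NC gave -0.05 (-0.36 to 0.25, adjusted p = 0.807), and the sign turned to 0.12 with centring on the median gene.

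Srf, which encodes the factor that binds the CArG boxes shown for Egr2 and for Srf itself, had a TPM of 22.7 and 22.0 in NC, 22.5 and 20.9 in LPS, 29.7 and 35.8 in C498, and 20.9 and 23.0 in C498+LPS. Only the C498 samples lay apart, above the other 6. Their mean was 1.46 times that of NC (log2 difference 0.52, 95% interval 0.21 to 0.84, adjusted p = 0.0393), and the C498+LPS mean was 0.671 of theirs (-0.55, -0.86 to -0.24, adjusted p = 0.0328). Both were below the fold threshold. C498+LPS vs LPS gave 0.02 (-0.29 to 0.33, adjusted p = 0.958). In GENCODE M21 the gene overlaps Gm26904 on the opposite strand, and whether counting used strand is not given in the sources used here.

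Myc was at 7.53 and 6.06 TPM in NC, 6.22 and 7.61 in LPS, 17.9 and 19.1 in C498, and 17.9 and 26.8 in C498+LPS. The samples with C498 were all above those without it, and LPS and NC overlapped. C498 raised Myc to 2.72 times the NC mean (log2 change 1.33, 95% interval 0.82 to 1.84, adjusted p = 0.00943) and to 3.23 times the LPS mean (1.54, 1.03 to 2.05, adjusted p = 0.0044). LPS vs NC gave 0.02 (-0.49 to 0.53, adjusted p = 0.955) and C498+LPS vs C498 gave 0.23 (-0.28 to 0.74, adjusted p = 0.511). The call in C498 vs NC was lost without either C498 sample (adjusted p = 0.0774 without replicate 1 and 0.0841 without replicate 2) and in a fit of these 2 groups alone (0.0513). That in C498+LPS vs LPS was lost without LPS replicate 1 (adjusted p = 0.0501).

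**Figure D2:**
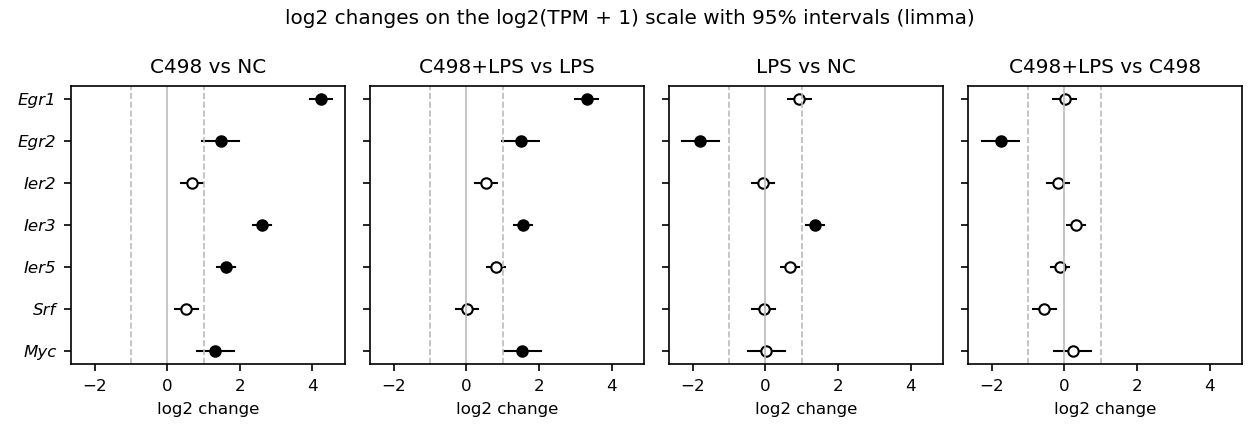
Change of the 7 tested genes on the log2(TPM + 1) scale in 4 comparisons, with 95% intervals from limma, filled points for calls, and dashed lines at a fold change of 2. Its 5 filled points lie to the right in C498 vs NC, and Egr2 is the gene that lies left of the dashed line in both LPS comparisons.

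The order of the TPM levels also differed between groups. In NC it ran from Ier3 through Ier5, Egr2, Ier2, Srf, Myc and Egr1 to Egr3, and of these neighbours Egr2 and Ier2 overlapped. In LPS, Egr2 came after Myc, with overlapping samples, and the order was otherwise kept. In C498, Egr1 stood after Ier3, Ier5 and Egr2 and ahead of Ier2, Srf, Myc and Egr3, with no overlap between neighbours. In C498+LPS, Egr1 came right after Ier3 and Ier5, Ier2 followed, and Myc, Srf and Egr2 overlapped in sequence before Egr3. The order is a description of levels per gene length.

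The mesothelial and fibroblast markers moved with C498, as Egr1, Ier3, Ier5 and Myc did. Their summed TPM was 157 and 111 in NC, 157 and 130 in LPS, 493 and 585 in C498, and 454 and 671 in C498+LPS. Most of each sum came from Col1a1 and Col1a2, with means of 65.7 and 60.5 TPM in NC and 271 and 242 TPM in C498. Of the 5 tested markers 4 were called up in C498 vs NC (Col1a1, Col1a2, Krt19 and Pdgfra) and 3 in C498+LPS vs LPS (Col1a1, Col1a2 and Krt19). Col1a1, a collagen of fibroblasts, was at 77.5 and 53.9 TPM in NC and at 247 and 294 TPM in C498. The mesothelial markers Msln and Upk3b were low, with means of 0.085 and 0.505 TPM in NC and 0.84 and 1.68 TPM in C498. All 5 tested markers were higher in both C498 comparisons at an unadjusted p under 0.05. Each of the 8 early response genes was higher in C498+LPS replicate 2, the sample with the highest marker sum, than in replicate 1. Some of these differences were small, such as 533 against 523 TPM for Ier3 and 21.0 against 20.3 TPM for Egr2. The share of all tested genes that were higher in replicate 2 was not counted. In C498, where replicate 2 also had the higher sum, Egr1, Egr2, Ier2, Ier3 and Ier5 were lower in it and Egr3, Srf and Myc higher. The macrophage marker sum was lower with C498, at 15183 and 15346 TPM against 20248 and 19702 TPM in NC, with 0 of 6 markers called in that comparison and 3 lower at an unadjusted p under 0.05. In C498+LPS it was 12374 and 10583 TPM, against 16512 and 17157 TPM in LPS, with 0 of 6 markers called and 4 lower at an unadjusted p under 0.05. Lyz2 made up most of these macrophage sums, with means of 15986 TPM in NC and 11497 TPM in C498. Of the 6 macrophage markers, only Cd68 had a higher mean in C498 than in NC (2839 against 2791 TPM). Csf1r was called down in C498+LPS vs C498 (log2 change -1.14) and in C498+LPS vs NC (-1.59). Neutrophil markers summed to 201 and 221 TPM in NC, 180 and 201 in LPS, 124 and 116 in C498, and 139 and 114 in C498+LPS, and of the 2 tested markers, Mmp8 and S100a8, both were lower in C498 vs NC at an unadjusted p under 0.05 and Mmp8 was called down in C498+LPS vs NC. C498+LPS replicate 2 stood apart from replicate 1 in the lymphocyte sum (10.6 against 3.73 TPM) and in the eosinophil and mast cell sum (14.4 against 5.98 TPM). The part of these cells in the changes of the early response genes was not tested.

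**Figure D3:**
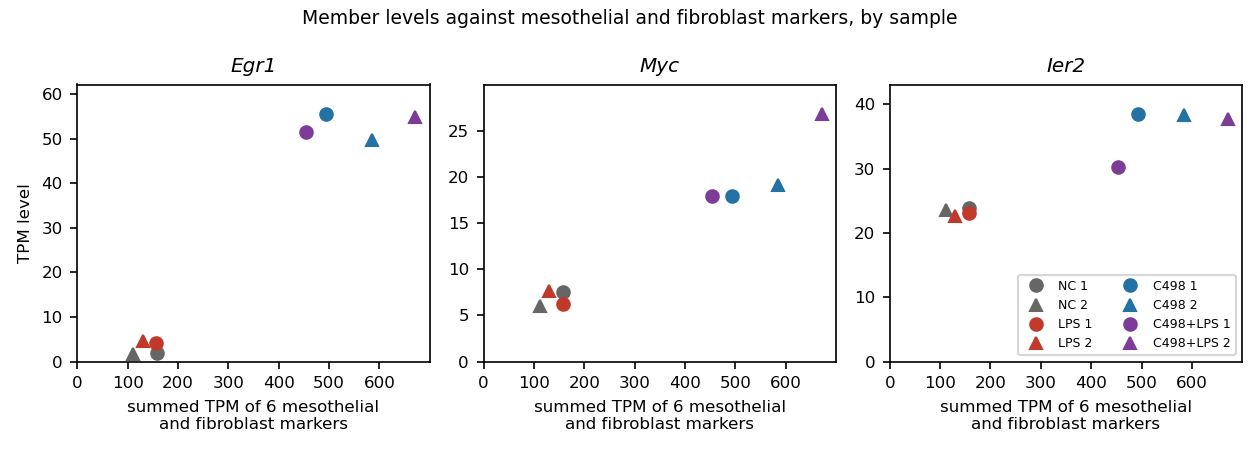
TPM level of Egr1, Myc and Ier2 (vertical axes) against the summed TPM of 6 mesothelial and fibroblast markers (horizontal axis), with a point per sample, circles for replicate 1 and triangles for replicate 2. Most of each sum is from Col1a1 and Col1a2. The 4 samples without C498 lie at sums of 111 to 157 TPM and the 4 with it at 454 to 671 TPM, and among the latter Egr1 shows no order with the sum while Myc is highest at the highest sum.

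Other immediate-early genes were followed as a list of 42, all tested. C498 alone called 32 of them up and 0 down, with a median log2 change of 1.84 (5.64% of all tested genes were called up and 1.36% down). After LPS, C498 called 22 up and 0 down, with a median of 1.04 (5.39% and 2.18%). At an unadjusted p under 0.05, 40 of the 42 were higher and 1 lower in C498 vs NC, and 32 were higher and 0 lower in C498+LPS vs LPS. LPS alone called 12 up and 5 down, against 5.55% and 6.68% of all tested genes, and with C498 present 5 up and 8 down, against 2.52% and 3.13%. The counts in the C498 comparisons ranged from 27 to 33 and from 16 to 22 when single samples were left out.

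On the log2(TPM + 1) scale, Nr4a1, an orphan nuclear receptor, had the largest C498 change in the list, a rank that depends on the added 1 for genes near 0 TPM such as Fosb. Its TPM was 0.97 and 1.27 in NC, 1.44 and 1.79 in LPS, 105 and 104 in C498, and 42.8 and 49.8 in C498+LPS. Both groups with C498 were above the others without overlap, and it rose by 5.64 on the log2 scale in C498 vs NC (adjusted p = 1.08e-05) and by 4.18 in C498+LPS vs LPS. Dusp1, a phosphatase that inactivates p38 and JNK, went from a mean of 15.8 TPM in NC to 465 TPM in C498 and from 14.0 TPM in LPS to 142 TPM in C498+LPS, log2 changes of 4.79 and 3.25. Fosb, an AP-1 subunit, was listed at 0 in 3 of the 4 samples without C498 and at 0.06 TPM in the other, and reached 25.5 and 26.4 TPM in C498 and 6.38 and 8.17 TPM in C498+LPS. Nr4a2, a relative of Nr4a1, had 24.1 TPM in both C498 samples but 6.03 and 34.0 TPM in C498+LPS, the higher of these in replicate 2, and its calls in both C498 comparisons had log2 changes of 4.30 and 3.58. Fosl1, another AP-1 subunit, rose by 2.59 in C498 vs NC and by 3.15 in C498+LPS vs LPS. Its NC samples lay apart, at 4.12 and 0.54 TPM, so the size of the first change is uncertain.

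The 3 list genes with the largest rise after LPS were Ptgs2, Nfkbiz and Tnfaip3, and C498 alone called them up as well. Ptgs2, which encodes the prostaglandin synthase COX-2, rose by 6.64 on the log2 scale with LPS and by 4.04 with C498, from 4.09 TPM in NC to 487 and 78.8 TPM. In C498+LPS it had a mean of 788 TPM, a difference from LPS of 0.70 (adjusted p = 0.141). Nfkbiz, a nuclear IκB protein, rose by 3.67 with LPS and 1.62 with C498, and Tnfaip3, which encodes the deubiquitinase A20, by 2.69 and 1.83. For both, C498+LPS vs LPS was not called (log2 differences 0.19 and 0.35). Nfkbia, which encodes IκBα and is named here after its values were seen, rose by 2.07 with LPS, and its C498 vs NC difference of 0.81 (161 to 283 TPM, adjusted p = 0.00567) was under the fold threshold. Rgs2, a regulator of G protein signalling, had the pattern of Egr2: it fell by 2.55 with LPS and rose by 1.62 with C498 alone and by 2.63 with C498 over LPS.

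**Figure D4:**
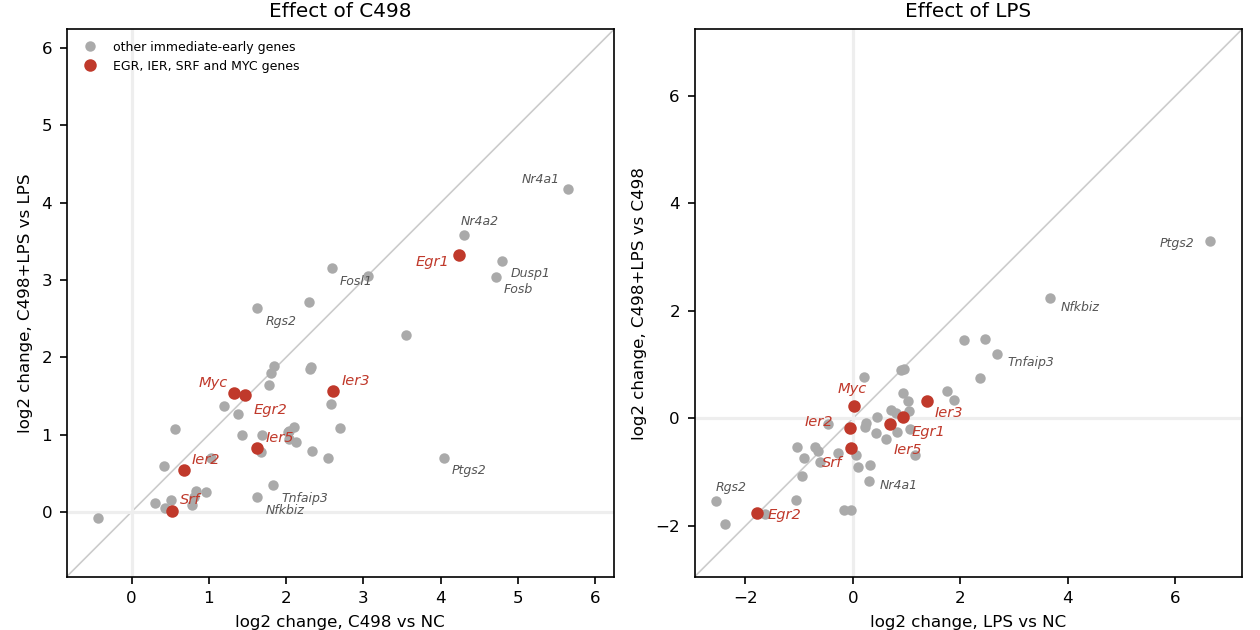
Log2 change of each tested early response gene (red) and of 42 other immediate-early genes (grey) without the other agent (horizontal axis) and with it (vertical axis), for C498 on the left and LPS on the right, with the line of equal change. Nr4a1 and Egr1 lie at the upper right for C498, while Egr2 and Rgs2 lie at the lower left for LPS.

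Of 12 kinases from TLR4 and growth factor receptors to ERK and beyond, LPS called Map3k8 up (log2 change 1.05) and Mknk1 and Mknk2 down (-1.12 and -2.47), where 5.55% of all tested genes were called up and 6.68% down. Map3k8 activates the ERK branch below TLR4, and Mknk1 and Mknk2 phosphorylate the translation factor eIF4E. C498 called 1 of the 12, Mknk2, up in both of its comparisons, by 1.30 over NC and by 2.53 over LPS. A count of 1 in 12 is near the 5.64% and 5.39% of all tested genes called up. With an unadjusted p under 0.05, 1 kinase was higher and 2 lower in C498 vs NC, and 1 higher and 5 lower in C498+LPS vs LPS. Mknk2 was at 59.0 and 60.1 TPM in NC, 10.4 and 9.49 in LPS, 150 and 145 in C498, and 61.7 and 63.0 in C498+LPS, so that C498 was highest and LPS lowest, as for Egr2.

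Genes that ERK induces and that act back on it numbered 13, of which 11 were tested. C498 alone called 3 up, Dusp4, Dusp5 and Errfi1, and over LPS it called Dusp5, Errfi1 and Spred3 up, against 5.64% and 5.39% of all tested genes. Dusp5, a nuclear ERK phosphatase, was at 3.79 and 3.47 TPM in NC, 6.05 and 4.73 in LPS, 28.0 and 26.0 in C498, and 26.5 and 39.6 in C498+LPS. Both C498 groups were above the others, as for Egr1 and Myc, with log2 changes of 2.60 (adjusted p = 5.76e-04) and 2.39 (adjusted p = 9.85e-04). Errfi1, an inhibitor of the EGF receptor, rose by 1.58 and 2.21 in the same comparisons. LPS alone called Dusp4 and Spred1 up (1.26 and 1.84) and Dusp7 down (-1.12), against 5.55% and 6.68% of all tested genes.

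The partners of SRF, Elk1, Elk3, Elk4, Mrtfa and Mrtfb, were called in no comparison, and Myocd was not among the tested genes. At an unadjusted p under 0.05, 2 of these 5 were higher and 1 lower in both C498 comparisons. Of 17 cytoskeletal genes that SRF drives, 16 were tested. C498 alone called Tagln and Vcl up (log2 changes 1.45 and 1.16), C498 over LPS called Acta2, Tagln and Tpm1 up (1.23, 1.499 and 1.48), and LPS alone called Vcl up (1.41). Of all tested genes, 5.64%, 5.39% and 5.55% were called up in these comparisons. At an unadjusted p under 0.05, 7 of the 16 were higher and 1 lower in C498 vs NC, and 4 higher and 3 lower in C498+LPS vs LPS, with list medians of 0.21 and 0.06. Actb, the cytoplasmic actin gene and named here after its values were seen, averaged 1954 TPM in C498+LPS against 3382 TPM after LPS alone (log2 difference -0.79, adjusted p = 0.00478). Tagln, an actin-binding protein of smooth muscle and myofibroblasts, was at 7.34 and 10.0 TPM in NC and 24.1 and 26.3 TPM in C498, and its highest value, 47.0 TPM, was in C498+LPS replicate 2, the sample with the highest mesothelial and fibroblast marker sum. The part of those cells was not tested.

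Of 25 genes commonly taken as MYC targets, C498 alone called 2 up, Ccnd2 and Odc1, and over LPS 2 up, Odc1 and Gnl3. These counts are near those of all tested genes, of which 5.64% and 5.39% were called up. None of the 25 was called down in either (at an unadjusted p under 0.05, 10 were higher and 0 lower in C498 vs NC and 13 higher and 1 lower in C498+LPS vs LPS), and the median log2 changes were 0.30 and 0.40, against 0.01 in both comparisons over all genes. Odc1, the rate-limiting enzyme of polyamine synthesis, was at 42.9 and 44.5 TPM in NC, 46.8 and 42.2 in LPS, 113 and 120 in C498, and 201 and 222 in C498+LPS. Its groups with C498 were above the others without overlap, with log2 changes of 1.39 (adjusted p = 3.43e-04) and 2.23 (adjusted p = 1.08e-04). LPS alone called Ccnd2, a D-type cyclin, and Wdr43, a ribosome assembly factor, up by 2.52 and 1.37, where 5.55% of all tested genes were called up, and the median of the 25 was -0.26 against -0.17 over all genes.

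The genes whose log2(TPM + 1) followed each early response gene most closely over the 8 samples were sought among the 3745 or 3746 other tested genes whose group means spanned at least 1 on the log2 scale. The 8 points share 4 treatments, so Pearson's r is given as a description. For Egr1 these were Ifrd1, a transcriptional coregulator (r = 0.997), Serpina3n, a protease inhibitor (0.996), and Osmr, the oncostatin M receptor (0.995). For Egr2 they were Tatdn2 (0.992), the AP-1 subunit Jun (0.988) and Midn (0.987). Jun was at 94.7 and 77.7 TPM in NC, 27.6 and 26.2 in LPS, 320 and 275 in C498, and 85.7 and 86.6 in C498+LPS. It had the order of Egr2, with C498 highest and LPS lowest.

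Ier3 was followed by Hbegf, a ligand of the EGF receptor (r = 0.996), Coq10b (0.995) and the small GTPase Gem (0.994), and Ier5 by Sertad1 (0.996), the histone gene H3f3b (0.992) and the MAP kinase phosphatase Dusp2 (0.991). Ier2 was nearest to Nr4a2 (0.994), Col24a1 and Tshz2 (both 0.988). The nearest to Myc were the tetraspanin Cd81 (0.997) and 2 genes of the extracellular matrix, Fbln1 (0.995) and Bgn (0.994). Bgn was at 34.1 and 28.8 TPM in NC, 32.3 and 31.2 in LPS, 96.5 and 105 in C498, and 101 and 151 in C498+LPS, with its highest value in the sample where Myc and the mesothelial and fibroblast markers were highest. Srf, whose own group means spanned less than 1, had no gene as close among those searched, with r of 0.941 for Dlgap5, 0.932 for Phf12 and 0.922 for B130055M24Rik. Genes that changed as little as Srf were not searched. Among the 7 genes themselves, r was 0.983 for Ier3 and Ier5, 0.973 for Egr1 and Ier5 and 0.958 for Egr1 and Myc, against 0.797 for Egr2 and Srf and 0.300 for Egr2 and Ier3.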

How the data were processed

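Total RNA was isolated from 8 mouse peritoneal macrophage samples and the mRNA was sequenced. Per the labels and the study's methods, the authors used fastp for filtering, HISAT2 for alignment, StringTie for assembly and RSEM for quantification, and deposited TPM values per gene and sample. Versions, genome build and annotation are not given in the sources used here. The deposited group means were not used, and there were 0 other columns of per-sample values. DESeq2, which the authors ran on counts, was not repeated on TPM.

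Here limma 3.58.1 in R 4.3.3 was fitted to log2(TPM + 1) of 12189 genes (mean TPM of 1 or more), with 1 mean per group, all 8 samples and moderated variances that follow expression. P-values were adjusted over these genes (Benjamini-Hochberg), and a call took a 2-fold change together with an adjusted p no higher than 0.05. For 2 samples against 2 an exact permutation test cannot go below p = 0.333. Identifiers were looked up in GENCODE M21 (97.4% found, GRCm38 coordinates) and promoters in RefSeq (GRCm38.p6). Figures were drawn with matplotlib 3.10.9.

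The 8 genes and the gene lists were chosen with earlier results of these data known. The rule named, per list, up to 4 called genes with the largest change in C498+LPS vs LPS, C498 vs NC and LPS vs NC, every gene of a list of 4 or fewer, and the 3 tested genes nearest to each early response gene. Alternatives were a pseudocount of 0.1, no filter, a minimum mean TPM of 5, centring on the median gene, quantile normalization, a fit of the compared groups alone, variances without a trend, the replicate number as a block, calls without a fold threshold, and each sample left out in turn.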

Additional observations from a re-analysis of the deposited data

Results flagged for a closer look

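The LPS change differed with C498, by the limma interaction test, for Ier3 among the 8 genes, by -1.05 on the log2 scale (1.37 without C498 and 0.33 with it, adjusted p = 0.043). This call was lost with no filter, with centring, with no variance trend and in each of the 8 fits that left out 1 sample (adjusted p from 0.0577 to 0.205). Among the other genes named it differed for Mknk2 by 1.24 (-2.47 and -1.23, adjusted p = 0.0213). In the list of 42 other immediate-early genes, 5 had a called interaction, all in the negative direction, in which 48 genes were called over all tested genes against 9 in the positive one. They were Ptgs2 at -3.34 (6.64 and 3.30, adjusted p = 0.0252), Dusp1 at -1.54 (-0.16 and -1.71, adjusted p = 0.031), and Rgs1, Maff and Gadd45b, which were named after their values were seen. Rgs1 had -1.84 (1.16 and -0.68, adjusted p = 0.019), Maff -1.61 (2.36 and 0.75, adjusted p = 0.019) and Gadd45b -1.54 (1.88 and 0.33, adjusted p = 0.0128). At an unadjusted p under 0.05, the interaction was negative for 25 of the 42 and positive for 1, against 6.21% and 4.87% of all tested genes. The list median was -0.66, against -0.03 over all tested genes. Leaving out single samples took the count of 5 to between 0 and 8. The imbalance over all tested genes was lost in some fits that left out 1 sample and kept in others. Under every alternative with all 8 samples, more genes were called in the negative direction than in the positive one. The counts ran from 3 positive and 9 negative with no variance trend to 12 and 72 with the replicate block. No group had enough samples for a search for single samples that stand apart.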

How the results depend on the processing

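Direction was kept by every call of the 7 tested genes under all alternatives. With no fold change threshold the number of genes called went from 2 to 4 in LPS vs NC, 1 to 2 in C498+LPS vs C498, 5 to 7 in C498 vs NC, 4 to 6 in C498+LPS vs LPS and 4 to 5 in C498+LPS vs NC. Over all 12189 tested genes the calls also rose, from 677 up and 814 down to 1200 and 2409 in LPS vs NC. They went from 307 and 381 to 550 and 1430 in C498+LPS vs C498, and from 687 and 166 to 1132 and 754 in C498 vs NC. In C498+LPS vs LPS they went from 657 and 266 to 1107 and 938, and in C498+LPS vs NC from 1115 and 1104 to 1903 and 3175. With samples left out it ranged from 2 to 3 in LPS vs NC, from 3 to 5 in C498 vs NC (3 without either C498 sample, where Egr2 and Myc were lost) and from 3 to 4 in C498+LPS vs LPS. The interaction call of Ier3 went to 0 with no filter (adjusted p = 0.0958), centring (0.0786), no variance trend (0.128) and any sample left out, over a range of adjusted p of 0.0192 to 0.205. The cause of these losses was not tested, though each fit that left out a sample had a group of 1, taken to vary like the other groups. Egr1 in LPS vs NC reached the fold threshold with a pseudocount of 0.1 (1.22), centring (1.10), quantile normalization (1.11) and without LPS replicate 1 (1.00). The replicate numbers were not taken to pair the samples, since same-numbered deviations correlated at 0.0397 to 0.168. With the replicate block, 2, 5, 4, 1, 4 and 1 genes were called in LPS vs NC, C498 vs NC, C498+LPS vs LPS, C498+LPS vs C498, C498+LPS vs NC and the interaction, the same numbers as without it.

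Signs turned only for uncalled changes. In LPS vs NC, Ier2 gave 0.12 with centring and 0.079 with quantile normalization, Srf 0.13 and 0.10 (-0.092 to 0.0078 with samples left out), and Myc -0.11 to 0.16 with samples left out. For C498+LPS vs LPS, Srf gave -0.060 with centring, -0.016 with quantile normalization and -0.049 to 0.082 with samples left out. For C498+LPS vs C498, centring gave 0.033 for Ier2 and 0.10 for Ier5, and leaving out samples -0.061 to 0.097 for Egr1 and -0.046 to 0.51 for Myc. For C498+LPS vs NC, Srf gave 0.067 with centring, 0.085 with quantile normalization and -0.091 to 0.040 with samples left out. In the interaction, Egr2 gave -0.11 with quantile normalization and -0.28 to 0.35 with samples left out, Ier2 -0.29 to 0.027 and Myc -0.069 to 0.49. Over all genes, centring moved the calls in LPS vs NC from 677 up and 814 down to 853 and 530, in C498 vs NC from 687 and 166 to 565 and 269, in C498+LPS vs LPS from 657 and 266 to 579 and 335, and in C498+LPS vs C498 from 307 and 381 to 434 and 196. Depth could not be assessed, so the counting error of low genes such as Egr3 is unknown.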

Other observations

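Of the other genes of these families, Egr4 was listed at 0 in 7 of 8 samples, and Mycn was at 0.33 TPM or lower. Ier5l, a relative of Ier5, had means of 3.52 TPM in NC, 2.88 in LPS, 6.98 in C498 and 6.29 in C498+LPS and was not called (log2 difference 0.88 in C498 vs NC, adjusted p = 0.0754, and 0.91 in C498+LPS vs LPS, adjusted p = 0.0657). Mycl, a relative of Myc, was called up by LPS by 1.64, from 0.33 and 0.15 TPM to 2.70 and 2.99 TPM, and in C498+LPS it had 1.33 and 1.39 TPM.

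Of the 8 tested genes of the MAX network, which pair with or oppose MYC, C498 called 0 in either of its comparisons (1 higher in C498 vs NC and 3 higher and 1 lower in C498+LPS vs LPS at an unadjusted p under 0.05), while LPS alone called Mxd1 up by 1.25 and Mnt, Mxi1 and Mxd4 down (-1.60, -1.30 and -1.22), against 5.55% and 6.68% of all tested genes. All of these 4 encode proteins that repress MYC targets. Mnt was at 22.1 and 17.5 TPM in NC, 5.75 and 5.89 in LPS, 25.8 and 25.5 in C498, and 13.3 and 11.1 in C498+LPS, where the LPS samples were lowest. The C498+LPS vs LPS difference of Mnt was 0.94 (adjusted p = 0.00892), short of the fold threshold, and that of Mxi1 0.97 (adjusted p = 0.00783).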
